A study of Rattus norvegicus with 9 samples.

Results

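The adrenergic receptors of ipsilateral L4–6 dorsal root ganglia (DRGs) were examined as the 8 genes Adra1a, Adra1b, Adra1d, Adra2a, Adra2b, Adra2c, Adrb1 and Adrb3. They were taken by gene symbol from a table of 20413 genes. The 9 libraries came from adult male Sprague Dawley rats, 3 in each group, with tissue taken at day 10. In the chronic post-ischemia pain (CPIP) group, an O-ring had stopped the blood flow of 1 hind paw before reperfusion. The Sham group, labelled Con, had the same anesthesia with an O-ring that was cut open. The CPIP+EA group had CPIP and then electroacupuncture (EA), current passed through needles at the Zusanli and Kunlun acupoints of both hind limbs, once daily for 10 days. Each library combined the L4, L5 and L6 ganglia of the right side, so the segments were not separated. Libraries from rats with needles but no current were not analysed here, and the current cannot be told apart from needling and handling.

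Adrenergic receptors are G protein-coupled receptors for noradrenaline and adrenaline. The α1 receptors (Adra1a, Adra1b and Adra1d) couple to Gq and phospholipase C, the α2 receptors (Adra2a, Adra2b and Adra2c) to the inhibitory Gi/o proteins, and the β receptors (Adrb1 and Adrb3) to Gs and adenylate cyclase. Sympathetic axons normally end around blood vessels and not around sensory neurons. After nerve injury, sensory neurons can become responsive to noradrenaline, a state called sympathetic-sensory coupling, and sympathetic block is among the treatments tried in complex regional pain syndrome, the condition that CPIP is used to model.

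Expression was given as FPKM (fragment counts scaled by transcript length and by the mapped fragments of the library), which allows levels of different genes to be set side by side. Within a library the FPKM summed to 445647 at the lowest and 482940 at the highest, and 18279 to 18456 genes were above 0. The FPKM table carries no read counts, so no counting interval is given for any value. Differences were tested with limma on log2(FPKM + 0.5) in 1 fit of all 9 libraries, for the 17187 genes with a mean of at least 0.1 FPKM. A gene was called when it differed at least 1.5-fold and its p, adjusted by the Benjamini-Hochberg method, was below 0.01. Log2 fold changes are on that scale unless another added value is named, on which a change looks smaller than it is when FPKM is low. Of the 8 receptor genes, 7 passed the filter and Adrb3 did not. The library CPIP+EA replicate 3 stood apart in its markers. It was the lowest of the 9 for 8 of 13 sensory neuron markers, and 9 neutrophil and erythroid markers summed to 5620 FPKM in it, against 595 to 3440 in the other libraries. Without it the log2 fold change between CPIP+EA and Sham was -0.91 for Adra1a (unadjusted limma p of 0.00304, adjusted p of 0.103) and -0.24 for Adra2c (unadjusted limma p of 0.0755, adjusted p of 0.424).

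Adra2c was the most abundant receptor gene, with a mean of 8.68 FPKM over the 9 libraries, and Adra2a followed at 1.59. The mean was 0.993 for Adra1a, 0.986 for Adra1b, 0.523 for Adrb1, 0.379 for Adra1d and 0.230 for Adra2b. Adrb3 was listed at 0.03 FPKM in Sham replicate 2, at 0.06 in CPIP+EA replicate 2 and at 0 in the other 7 libraries. Among the means of all genes in the table, Adra2c stood at the 61.6th percentile, Adra2a at the 36.0th, and Adra1b at the 31.7th. The ranges of neighbours in this order overlapped except at its ends. Adra2c lay above Adra2a in all 9 libraries, with means 5.45 times apart, and Adra2b lay above Adrb3 in all 9. Adra1a and Adra1b could not be ranked, as Adra1a was the higher in 4 of 9 libraries. Within Sham, Adra1a was in place 3 of the order and Adra1b in place 4, and within CPIP and within CPIP+EA they were the other way round.

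**Figure D1:**
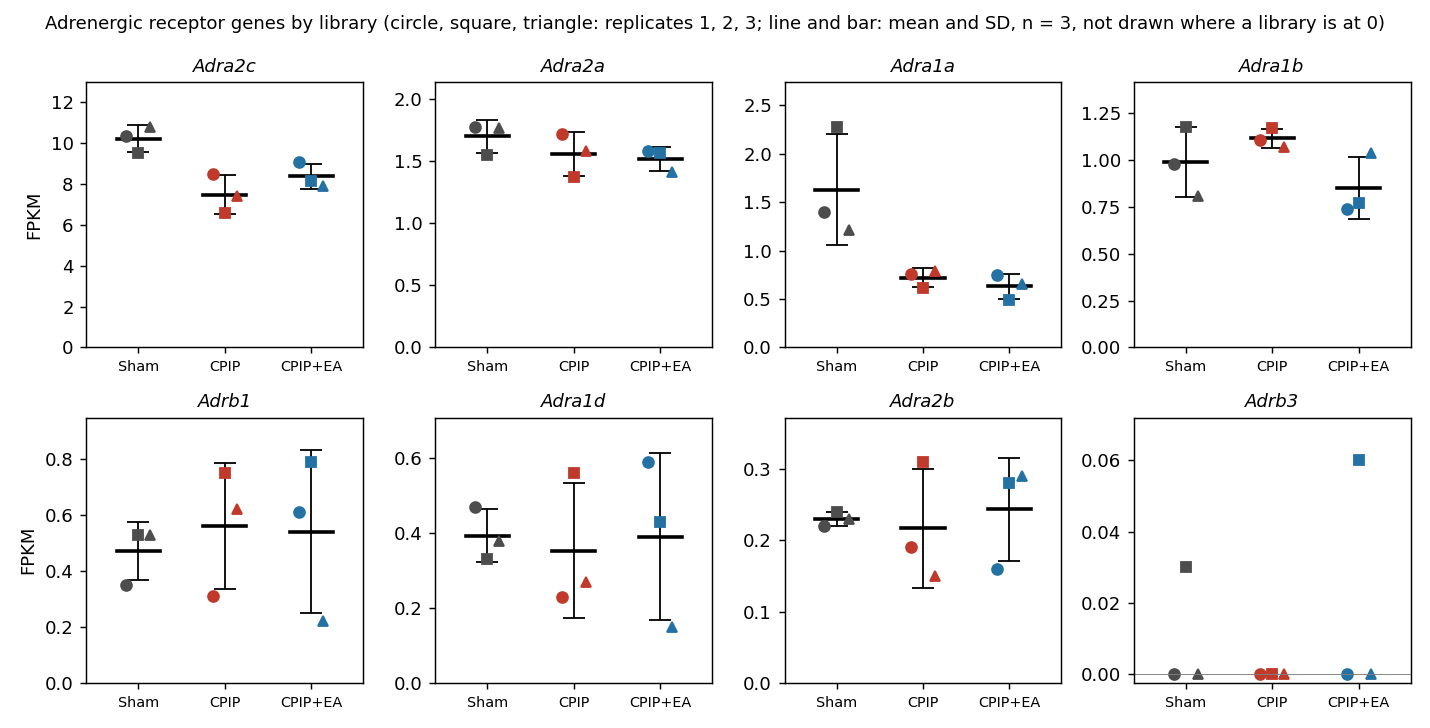
FPKM (vertical axes, linear, with a scale of their own in each panel) of the 8 adrenergic receptor genes in the Sham, CPIP and CPIP+EA libraries, with symbols for replicates, and lines and bars for the mean and SD (n = 3) except where a library is at 0. The 3 Sham libraries sit above the other 6 for Adra2c and for Adra1a, while the groups of Adrb1, Adra1d and Adra2b overlap.

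Adra2c encodes the α2C receptor, which inhibits adenylate cyclase and holds back transmitter release from nerve endings. It had 10.33, 9.49 and 10.8 FPKM in the Sham libraries, 8.48, 6.55 and 7.38 in the CPIP libraries, and 9.07, 8.13 and 7.9 in the CPIP+EA libraries. All 6 libraries of rats with CPIP lay below all 3 Sham libraries, and the CPIP and CPIP+EA libraries overlapped. In whole ganglia, fewer cells of a type and less RNA per cell cannot be told apart. The group means were 10.2 ± 0.664, 7.47 ± 0.968 and 8.37 ± 0.620 FPKM (SD, n = 3 each). Between CPIP and Sham the log2 fold change was -0.43 (standard error 0.10, 95% interval -0.66 to -0.20), with an unadjusted limma p of 0.00238 and an adjusted p of 0.145, which did not pass. Between CPIP+EA and CPIP it was 0.16 (95% interval -0.07 to 0.39) with a limma adjusted p of 0.996. Between CPIP+EA and Sham it was -0.27 (95% interval -0.51 to -0.04), with an unadjusted limma p of 0.0269 and an adjusted p of 0.323.

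The promoter of Adra2c is shown because Adra2c carried most of the receptor FPKM and its libraries were separated between Sham and CPIP. RefSeq (GRCr8) promoter sequences, 300 bases that span the gene start and lie mostly before it, were matched by gene identifier for 6 of the 8 receptor genes. The window of Adra2c lies at chr14:79697427-79697726 on the minus strand, and capitals mark matches to GGGCGG, the GC box bound by Sp1-type factors, on either strand.
Adra2c: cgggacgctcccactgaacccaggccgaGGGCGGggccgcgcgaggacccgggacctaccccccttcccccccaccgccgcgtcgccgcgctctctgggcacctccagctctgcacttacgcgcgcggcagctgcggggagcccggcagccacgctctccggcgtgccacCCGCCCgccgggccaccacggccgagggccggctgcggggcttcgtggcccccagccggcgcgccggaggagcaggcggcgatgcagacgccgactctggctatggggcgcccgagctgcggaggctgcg
It held 2 such matches and a GC content of 79.0%, against a median of 51.7% over the 33469 promoters of this length. The GC content of the other 5 receptor windows lay between 65.7 and 72.0%. GGGCGG or its complement was found in 33.1% of all promoters, and among the receptor genes also in those of Adra2b (2 matches) and Adra1b (1 match). The AP-1 motif TGANTCA (7.33% of all promoters) and the TATA box TATAAA (14.2%), searched on both strands, had 0 matches in each of the 6 windows. TGACG, the core of the cAMP response element (21.2% of all promoters), had 1 match, in Adrb1. These motifs do not overlap each other, and a match describes letters only.

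Adra2a encodes the α2A receptor, the α2 subtype through which clonidine lowers pain in the spinal cord. It had 1.78, 1.55 and 1.77 FPKM in Sham rats, 1.72, 1.37 and 1.58 in CPIP rats, and 1.58, 1.57 and 1.41 in CPIP+EA rats. The groups overlapped, and the log2 fold change was -0.10 from Sham to CPIP (95% interval -0.35 to 0.15) and -0.02 from CPIP to CPIP+EA (95% interval -0.27 to 0.23). Adra2b encodes the α2B receptor, known for constriction of blood vessels. It lay between 0.22 and 0.24 FPKM in Sham, between 0.15 and 0.31 in CPIP and between 0.16 and 0.29 in CPIP+EA, so that the 3 Sham libraries fell inside the ranges of the other groups.

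Adra1a encodes the α1A receptor, which raises intracellular calcium and contracts smooth muscle. It had 1.4, 2.28 and 1.21 FPKM in Sham rats, 0.76, 0.61 and 0.79 in CPIP rats, and 0.75, 0.49 and 0.65 in CPIP+EA rats. The lowest Sham library was above the highest of the 6 libraries of rats with CPIP, and the CPIP and CPIP+EA libraries overlapped. The means were 1.63 ± 0.571, 0.720 ± 0.0964 and 0.630 ± 0.131 FPKM (SD, n = 3 each), so the mean FPKM in CPIP was 0.442 of that in Sham. CPIP differed from Sham by a log2 fold change of -0.77 (standard error 0.19, 95% interval -1.20 to -0.35), with an unadjusted limma p of 0.0025 and an adjusted p of 0.147. Between CPIP+EA and Sham it was -0.89 (standard error 0.19, 95% interval -1.31 to -0.47), with an unadjusted limma p of 0.00103 and an adjusted p of 0.0619. Neither passed the threshold. Between CPIP+EA and CPIP it was -0.11 (95% interval -0.54 to 0.31), with a limma adjusted p of 0.996. Sham replicate 2 was the highest of the 9 libraries, and without it the log2 fold change from Sham to CPIP was -0.57.

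Adra1b encodes the α1B receptor, which also signals through Gq. It had 0.98, 1.18 and 0.81 FPKM in Sham rats, 1.11, 1.17 and 1.07 in CPIP rats, and 0.74, 0.77 and 1.04 in CPIP+EA rats. The 3 CPIP+EA libraries lay below the 3 CPIP libraries by a small margin, while the Sham libraries spanned most of both ranges. The log2 fold change between CPIP+EA and CPIP was -0.27 (95% interval -0.57 to 0.04), with an unadjusted limma p of 0.0781 and an adjusted p of 0.996. Adra1d, the α1D receptor of large arteries, had 0.47, 0.33 and 0.38 FPKM in Sham rats, 0.23, 0.56 and 0.27 in CPIP rats, and 0.59, 0.43 and 0.15 in CPIP+EA rats. Its Sham libraries fell inside the range of the CPIP+EA libraries, and its 95% interval between CPIP and Sham ran from -0.56 to 0.40.

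Adrb1 encodes the β1 receptor, which raises cAMP and is the main adrenergic receptor of heart muscle. It had 0.35, 0.53 and 0.53 FPKM in Sham rats, 0.31, 0.75 and 0.62 in CPIP rats, and 0.61, 0.79 and 0.22 in CPIP+EA rats. The CPIP and CPIP+EA libraries both reached above and below Sham, and the fitted log2 fold change from Sham to CPIP was 0.11 (95% interval -0.43 to 0.65). The interval was the widest of the 7 receptor genes tested, with a half-width of 0.54, against 0.23 for Adra2c. Adrb3 encodes the β3 receptor of fat cells, and its FPKM was too low for a comparison.

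Between CPIP and Sham, 0 of the 7 receptor genes tested were called, where the limma fit called 0.355% of all genes. Only Adra2c and Adra1a, 2 of the 7, reached an unadjusted limma p below 0.05, against 8.66% of all genes. Their libraries were also the only ones of the 7 that did not overlap between the groups, against 15.9% of all genes. The median log2 fold change of the 7 was -0.08, against -0.006 over all genes tested. Between CPIP+EA and CPIP, 0 of the 7 were called and 0 had an unadjusted limma p under 0.05, where the fit called 0% and found 4.29% of all genes respectively. The libraries of 1 receptor gene, Adra1b, did not overlap, against 8.23% of all genes, and the median log2 fold change was -0.02, against 0.012 over all genes. Between CPIP+EA and Sham, 0 of the 7 were called against 0.483% of all genes. An unadjusted limma p below 0.05 was found for Adra2c and Adra1a (and for 12.2% of all genes), and these were again the receptor genes whose libraries did not overlap (16.2% of all genes). The comparisons share libraries: both that end in Sham use the same 3 Sham libraries, and both that involve CPIP alone use the same 3 CPIP libraries. At cut-offs of the same size, the authors' own analysis reported more genes than this fit for CPIP against Sham and for CPIP+EA against CPIP. The shares of all genes given here are those of this fit only. With 7 genes, 1 gene is a large share, and these counts do not set the receptors apart from other genes.

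**Figure D2:**
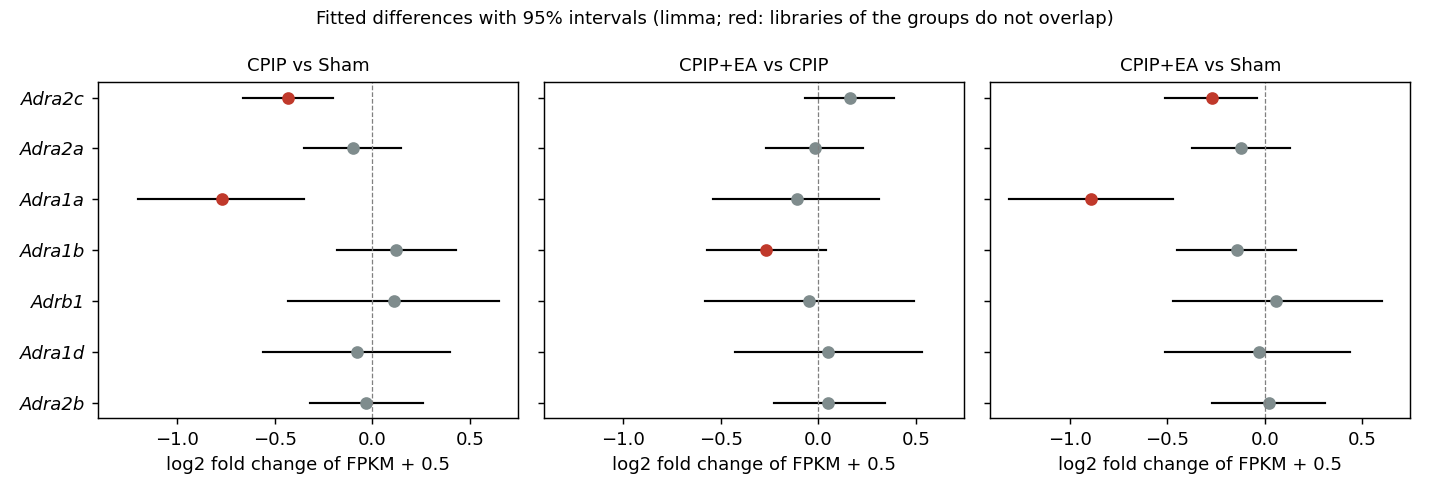
Fitted log2 fold change of FPKM + 0.5 (horizontal axes) with its 95% interval for the 7 receptor genes tested, in a panel for each comparison, with genes on the vertical axis and red points where the libraries of both groups do not overlap. The intervals of Adra2c and Adra1a lie below 0 in both comparisons with Sham and include 0 between CPIP+EA and CPIP.

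The summed FPKM of the 8 receptor genes was 15.5 to 15.7 in Sham, 11.3 to 12.8 in CPIP and 11.7 to 13.5 in CPIP+EA. From Sham to CPIP the mean sum was 3.64 FPKM lower, of which Adra2c made up 2.74 and Adra1a 0.910, while the mean of each other receptor gene differed by 0.143 FPKM or less. The α2 genes held 72.2 to 82.3% of the sum in every library, the α1 genes 13.5 to 24.2%, and the β genes 1.89 to 6.79%. Between Sham and CPIP these shares overlapped for each of the 3 classes. The α1 share was 16.4 to 20.7% in CPIP and 13.5 to 15.8% in CPIP+EA, so these groups did not overlap in it.

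Within the α1 class, Adra1a made up 49.1, 60.2 and 50.4% of the summed FPKM in Sham rats, 36.2, 26.1 and 37.1% in CPIP rats, and 36.1, 29.0 and 35.3% in CPIP+EA rats. Adra1b made up 34.4, 31.1 and 33.8% in Sham rats, 52.9, 50 and 50.2% in CPIP rats, and 35.6, 45.6 and 56.5% in CPIP+EA rats. Adra1a was thus the leading α1 gene in each Sham library and Adra1b in each CPIP library, and in CPIP+EA replicate 1 they were nearly level. The ratio of Adra2c to Adra2a was 5.80, 6.12 and 6.10 in Sham rats, 4.93, 4.78 and 4.67 in CPIP rats, and 5.74, 5.18 and 5.6 in CPIP+EA rats. The 3 groups did not overlap in this ratio, with CPIP lowest and CPIP+EA between, although the highest CPIP+EA library was close to the lowest Sham library. Such shares and ratios within a library do not depend on how libraries are scaled to each other. They were chosen after the values were seen, and were not tested.

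**Figure D3:**
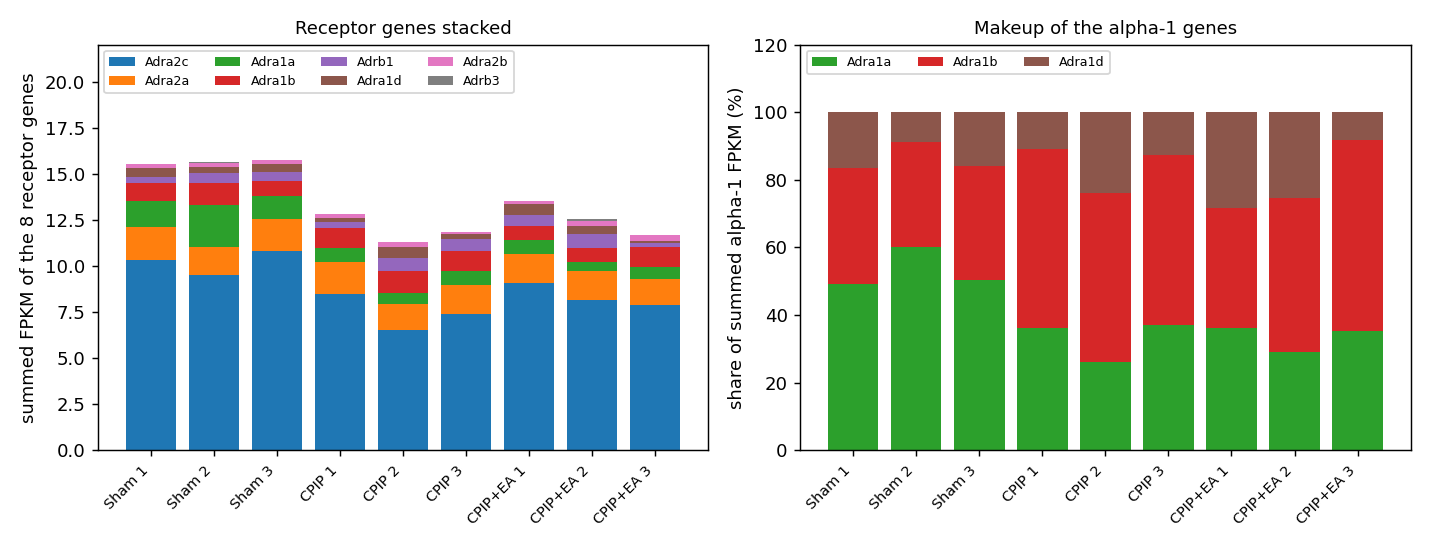
Stacked FPKM of the 8 receptor genes in each library (left) and the share of the summed α1 FPKM held by Adra1a, Adra1b and Adra1d in percent (right), with bars for the 9 libraries. Adra2c fills most of each bar on the left, and Adra1a holds 49.1 to 60.2% of the α1 sum in Sham and 26.1 to 37.1% in the other 6 libraries.

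Genes that make, move and break down noradrenaline were examined next, from a list of 13 of which 11 passed the filter. Maoa, which encodes monoamine oxidase A, an enzyme that breaks down noradrenaline and serotonin, rose in CPIP. It had 38.61, 44.9 and 46.12 FPKM in Sham rats, 80.27, 73.53 and 77.73 in CPIP rats, and 76.17, 84.68 and 80.41 in CPIP+EA rats. All 6 libraries of rats with CPIP lay above all 3 Sham libraries. The log2 fold change was 0.83 in CPIP against Sham (standard error 0.08, limma adjusted p of 0.00132) and 0.89 in CPIP+EA against Sham (standard error 0.08, limma adjusted p of 0.000739), and 0.06 between CPIP+EA and CPIP. The former was 0.83 without CPIP replicate 3 too, but with a limma adjusted p of 0.01 it then did not pass. Maoa was the only one of the 11 past the threshold in either comparison with Sham, and 0 of the 11 passed between CPIP+EA and CPIP. The list had a median log2 fold change of 0.06 in CPIP against Sham and of -0.03 in CPIP+EA against CPIP. Maob, the other monoamine oxidase, had means of 41.7, 43.4 and 37.1 FPKM in the 3 groups, with a log2 fold change of 0.06 from Sham to CPIP.

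Th, Slc18a2 and Slc29a4 were chosen for description after their values were seen. Th encodes tyrosine hydroxylase, the rate-limiting enzyme of catecholamine synthesis, which a set of low-threshold C fibre neurons of the DRG also expresses. It had 0.48, 0.48 and 0.52 FPKM in Sham rats, 0.28, 0.14 and 0.17 in CPIP rats, and 0.24, 0.21 and 0.07 in CPIP+EA rats. All 6 libraries of rats with CPIP lay below Sham. From Sham to CPIP its log2 fold change was -0.52, with an unadjusted limma p of 0.00426 and an adjusted p of 0.198. With 0.1 added to FPKM in place of 0.5 the value was -1.03, and with 1 added it was -0.32. Slc18a2, the vesicular monoamine transporter, had 8.65, 7.59 and 7.87 FPKM in Sham rats, 6.89, 6.63 and 6.65 in CPIP rats, and 8.17, 7.8 and 6.03 in CPIP+EA rats. Slc29a4, a plasma membrane monoamine transporter, had 6.41, 5.08 and 5.54 FPKM in Sham rats, 7.84, 7.22 and 8.6 in CPIP rats, and 7.54, 8.46 and 5.38 in CPIP+EA rats, and CPIP against Sham gave a limma adjusted p of 0.415.

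**Figure D4:**
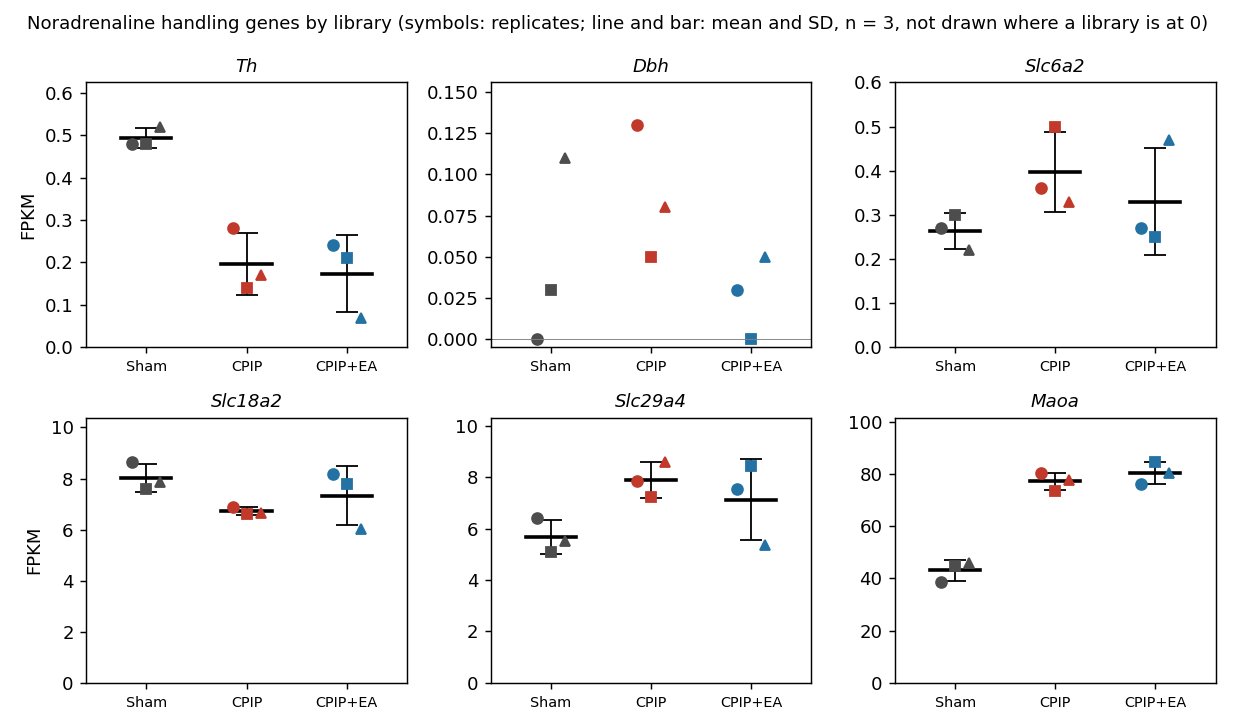
FPKM (vertical axes, linear, with a scale of their own in each panel) of 6 genes of noradrenaline synthesis, transport and breakdown in the Sham, CPIP and CPIP+EA libraries, with symbols for replicates, and lines and bars for the mean and SD (n = 3) except for Dbh, where 2 libraries are at 0. Maoa in the 6 libraries of rats with CPIP lies between 73.53 and 84.68 FPKM, above all Sham libraries, and Th below all of them.

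Of the genes that define sympathetic neurons, Hand2 and Dbh were at or near 0. Those described here were picked with their values known. Hand2, a transcription factor of that lineage, was listed at 0 in all 9 libraries. Dbh, the enzyme that turns dopamine into noradrenaline, had 0, 0.03 and 0.11 FPKM in Sham rats, 0.13, 0.05 and 0.08 in CPIP rats, and 0.03, 0 and 0.05 in CPIP+EA rats. Slc6a2, the noradrenaline transporter of sympathetic axons, had 0.27, 0.3 and 0.22 FPKM in Sham rats, 0.36, 0.5 and 0.33 in CPIP rats, and 0.27, 0.25 and 0.47 in CPIP+EA rats. Its CPIP libraries lay above all Sham libraries, with a limma adjusted p of 0.763, and its CPIP+EA libraries overlapped both groups. Of the 10 genes in this list, 6 passed the filter and 0 were called in any comparison. The summed FPKM of the list was 32.4 to 39.7 in Sham, 29.7 to 31.6 in CPIP and 22 to 38.2 in CPIP+EA, most of it from Chrna3 and Chrnb4, nicotinic receptor subunits, and Slc18a2, which sensory neurons can also express.

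In the list of Gq signalling genes, led by Gnaq with a mean of 70.3 FPKM, 0 of 14 genes were called in any comparison, and the median log2 fold change was -0.04 in CPIP against Sham, -0.04 in CPIP+EA against CPIP and -0.13 in CPIP+EA against Sham. In the last, 3 of the 14 (Prkca and, named for their values, Prkce and Gna14) were lower at an unadjusted limma p below 0.05, against 12.2% of all genes in either direction. Without CPIP+EA replicate 3, Prkce and Gna14 no longer had that p, at 0.145 and 0.174 by limma. Prkca, a protein kinase C gene, was also lower in CPIP+EA than in CPIP at an unadjusted limma p of 0.0301, with an adjusted p of 0.996. In the Gi/o list, 0 of 11 were called and the medians in the same order were 0.01, 0.01 and -0.02. It was led by Gnai2 and Gnao1, the latter with means of 138 ± 14.8, 127 ± 6.08 and 122 ± 24.3 FPKM in the 3 groups (SD, n = 3 each). In the Gs and cAMP list, led by Gnas at a mean of 861 FPKM, 0 of 22 were called in any comparison and the median lay within 0.04 of 0 in each. Its members went both ways. At an unadjusted limma p below 0.05, 3 were higher and 3 lower in CPIP+EA than in Sham, against 12.2% of all genes. In CPIP against Sham 2 were higher and 1 lower, against 8.66% of all genes. In the Gi/o list, 1 of 11 was lower at that p in each comparison with Sham.

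Among 12 genes of receptor desensitisation, mostly the kinases, arrestins and RGS proteins that end a receptor's signal, 0 were called, and 4 (Grk6, Arrb1, Rgs2 and Rgs16, of which all but Arrb1 were named after their values were seen) were higher in CPIP than in Sham at an unadjusted limma p below 0.05, against 8.66% of all genes in either direction. For CPIP+EA against Sham, 4 of the 12 were higher and 1, Rgs4, was lower at that p, against 12.2% of all genes. Arrb1, which encodes β-arrestin 1, had 51.19, 45.16 and 45.36 FPKM in Sham rats, 60.66, 60.71 and 66.15 in CPIP rats, and 71.79, 69.25 and 55.58 in CPIP+EA rats. From Sham to CPIP its log2 fold change was 0.40 with a limma adjusted p of 0.163. Rgs4, a regulator that shortens Gq and Gi/o signals and the most abundant gene of the list, had 382.07, 379.96 and 387.07 FPKM in Sham rats, 305.61, 325.87 and 347.41 in CPIP rats, and 310.84, 338.65 and 244.4 in CPIP+EA rats. Its libraries of rats with CPIP all lay below Sham, and the limma adjusted p was 0.654 for CPIP and 0.213 for CPIP+EA, each against Sham. Its log2 fold change in CPIP+EA against Sham was -0.38, and -0.24 without CPIP+EA replicate 3.

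The tissue matched its label by its markers. The summed FPKM of 13 sensory neuron markers was 4670 to 5320 in Sham, 4920 to 5470 in CPIP and 4490 to 5740 in CPIP+EA. The most abundant of them, such as the cytoskeletal genes Tubb3, Prph and Nefh, made up most of this sum, and single markers differed in direction. Of the 13, 0 were called between CPIP and Sham or between CPIP+EA and Sham. For 5 of them the CPIP libraries were separate from the Sham libraries (against 15.9% of all genes), with Tubb3 and Prph higher in CPIP and Rbfox3, Tac1 and Scn10a lower. These last 3 were named with their values known. Scn10a, the sodium channel Nav1.8 of nociceptors, had 71.52, 70.28 and 62.32 FPKM in Sham rats, 54.39, 57.75 and 54.41 in CPIP rats, and 56.22, 49.36 and 32.81 in CPIP+EA rats. As for Adra2c and Adra1a, all 6 libraries of rats with CPIP lay below Sham, and the limma adjusted p was 0.741 for CPIP and 0.173 for CPIP+EA, each against Sham. The log2 fold change of Scn10a between CPIP+EA and Sham was -0.59, and -0.36 without CPIP+EA replicate 3. Rbfox3, a neuronal splicing factor, likewise lay below Sham in all 6. For 10 markers of vascular smooth muscle and pericytes, where α1 receptors are also found, the sum was 127 to 148 in Sham, 95.7 to 149 in CPIP and 102 to 142 in CPIP+EA, with 0 called. Within this list Cspg4, a pericyte proteoglycan also named with its values known, had 4.1, 4.15 and 4.08 FPKM in Sham rats, 3.3, 3.5 and 3.15 in CPIP rats, and 2.81, 2.71 and 3.36 in CPIP+EA rats. It lay below Sham in all 6 libraries of rats with CPIP, with a limma adjusted p of 0.442 for CPIP and 0.0958 for CPIP+EA, each against Sham. Satellite glia markers (6 genes) summed to 224 to 251, 216 to 243 and 226 to 254 FPKM, and endothelial markers (8 genes) to 63.5 to 91.3, 73.3 to 84.8 and 66.4 to 92.7. Schwann cell markers (6 genes) summed to 7030 to 11100, 6690 to 11900 and 4710 to 9320, macrophage markers (7 genes) to 46.3 to 57.6, 50.7 to 61.6 and 50.4 to 77.4, and adipocyte markers (9 genes in the table) to 31.9 to 37.6, 29.0 to 40.5 and 27.7 to 37.0. Of these lists, 1 gene was called, the adipocyte marker Cidec, higher in CPIP+EA than in Sham, where 0.483% of all genes were called. Its CPIP libraries all lay above Sham too, with a log2 fold change of 0.88 and a limma adjusted p of 0.0224, which did not pass. Between CPIP+EA and CPIP its log2 fold change was 0.12. Such sums do not show single markers. At an unadjusted limma p below 0.05, 1 of the 7 macrophage markers was higher in CPIP than in Sham, against 8.66% of all genes. In CPIP+EA against Sham 2 were higher, against 12.2% of all genes, and 0 were lower in either. Between CPIP+EA and CPIP, 1 of the 6 satellite glia markers was higher and 1 lower at that p, against 4.29% of all genes. The sum of 9 neutrophil and erythroid markers ran from 690 to 5620 in CPIP+EA, the highest in replicate 3, with 0 called. All 10 genes of an axon injury list, such as Atf3 and Npy, were called as higher both in CPIP and in CPIP+EA than in Sham. That list was chosen with earlier results of these libraries known. Whether cell makeup had a part in the lower Adra2c and Adra1a values was not tested.

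The genes whose pattern over the 9 libraries was most like that of Adra2c, by Pearson r of log2(FPKM + 0.5) among 13913 genes with a mean of at least 1 FPKM, were Cep85 (r = 0.96), Ephx2 (r = 0.94) and Hoxb2 (r = 0.92). For Adra2a they were Gabra2 (r = 0.94), Cabp7 (r = 0.93) and RGD1310257 (r = 0.91). Among the 21 pairs of the 7 receptor genes tested, r over the 9 libraries lay between -0.53 for Adra2a with Adra2b and 0.79 for Adra2a with Adra2c. These are descriptions over 9 libraries that share their groups and their scaling, and with so many genes searched, high values of r are found by the search itself.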

How the data were processed

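RNA-Seq libraries of 9 rat DRG samples were analysed, 3 each of Sham, CPIP and CPIP+EA, grouped by the repository's sample names. The authors filtered reads from the BGISEQ-500 with SOAPnuke 1.5.2 and deposited, for every gene in every library, an FPKM value with 2 decimals. The aligner, the quantifier and the genome build are not given in the sources used here. Columns of the authors' comparisons (log2 ratio, P-value, Q-value), deposited in the same table, were not used. Only 28.5% of 242 values of rarely detected genes lay within 0.05 of a whole multiple of the gene's smallest value, so read counts were not recovered.

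FPKM values were tested with limma 3.58.1 (R 4.3.3) as log2(FPKM + 0.5), with eBayes and a mean-variance trend, no covariate, two-sided p-values adjusted over all 17187 genes by the Benjamini-Hochberg method, and a call at an adjusted p under 0.01 and at least 1.5-fold. Tables and figures used Python 3.11.15, pandas 2.3.3 and matplotlib 3.10.9. The receptor genes and the gene lists were chosen with earlier results of these data known. Named genes were the receptors and, from each list, genes past the threshold and up to 3 of the most abundant, and any other gene is marked in the text as picked with its values known. Each library is taken as 1 rat, so p-values set a difference against the spread between libraries of different rats. The fit moderates that spread over all genes tested. With 1 library per rat, the spread between rats cannot be told apart from that of library preparation. Alternatives are given in the closing section.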

Additional observations from a re-analysis of the deposited data

How the results depend on the processing

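The count of receptor genes past the threshold was 0 in each of the 3 comparisons under all 21 alternatives: a filter at a mean of 1 FPKM (which leaves only Adra2a and Adra2c) or none, 0.1 or 1 as the pseudocount, quantile normalization, a TPM scale, median centring, no trend, only the 2 groups compared, an adjusted p under 0.05 with no fold limit, a robust trend, a block for the replicate number, and each library left out. In these fits the log2 fold change of Adra1a lay between -1.04 and -0.57 for CPIP against Sham (limma adjusted p between 0.138 and 0.415) and that of Adra2c between -0.52 and -0.35 (0.119 to 0.384), each with an unadjusted p under 0.05 wherever it was tested. For CPIP+EA against Sham, Adra1a kept its unadjusted p under 0.05 in all 20 fits that tested it, and Adra2c lost it in 4 fits, without Sham replicate 1 or 3 or without CPIP+EA replicate 2 or 3. For CPIP+EA against CPIP, where no receptor gene had an unadjusted p under 0.05, Adra1b did in 3 fits (quantile normalization, no trend, and without CPIP+EA replicate 3) and Adra2c in 1 (without CPIP replicate 1), with limma adjusted p of at least 0.681.

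The sign of some small differences turned when a library was left out. For Adra1d the log2 fold change lay between -0.25 and 0.019 (CPIP against Sham), -0.114 and 0.259 (CPIP+EA against CPIP), and -0.197 and 0.176 (CPIP+EA against Sham). For Adra2b it lay between -0.124 and 0.034, -0.013 and 0.146, and -0.025 and 0.105, and was -0.022 for CPIP+EA against Sham with quantile normalization. For Adrb1 it lay between -0.021 and 0.292, -0.228 and 0.198, and -0.112 and 0.309. For Adra2a it lay between -0.09 and 0.033, and for Th between -0.126 and 0.062, for CPIP+EA against CPIP. For Prkce it lay between -0.123 and 0.072 in that comparison, and for Gna14 between -0.133 and 0.086 for CPIP against Sham. The cause was not tested.

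Same-numbered libraries of different groups correlated in their deviations from the group means with r between -0.236 and 0.297. Of the 9 libraries, 2 matched best with their own number. These values do not show that the numbers pair the libraries, and with 3 libraries in each group they cannot exclude it. With the replicate number as a block, 0 receptor genes were called, and the count over all genes went from 61 to 26 for CPIP against Sham and from 83 to 42 for CPIP+EA against Sham. With 1 library left out these counts lay between 30 and 62, and between 35 and 82. They were 122 and 226 with an adjusted p under 0.05 and no fold limit.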
